A study of Homo sapiens with 20 samples.

Results

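Transcript levels of estrogen receptor coregulators were measured in SUM44 cells, an established human breast cancer line of invasive lobular origin. The set was fixed by name, with earlier results of these data known, so its counts of called members are no independent test. It held 9 genes: NCOA1, NCOA2, NCOA3, NRIP1, NCOR1, EP300, CREBBP, MED1 and TRIM24. A gene was measured where a probe set carried its symbol and no other, and this held for 7 of the 9 members through 19 probe sets, out of 11963 genes and 19064 such probe sets in the whole table. NCOA3 and NCOR1 had no such probe set in the annotation used and are not analysed here. Where a gene had several, its brightest probe set by mean level led, and the rest were checked against it.

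The 20 Affymetrix arrays fell into 5 groups of 4: 1 nM estradiol (E2) for 3 h, ethanol vehicle at 0.01% for 3 h, E2 for 24 h, vehicle for 24 h, and a baseline labelled 0 h, with neither added. All cells, baseline included, had first spent 3 days without hormone in charcoal-stripped serum, so even the baseline is a deprived state. The serum is given as 2% in the series text and 10% in the sample text. The treatment field of the 24 h E2 arrays reads baseline, whereas their titles name E2, and the titles were followed. All arrays come from 1 cell line. Replicates are called biological in the series text, and p-values set differences of group means against the spread between these cultures.

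Estrogen receptor alpha is a ligand-activated transcription factor, and on DNA it works through proteins that it recruits. The p160 coactivators, among them NCOA1 (SRC-1) and NCOA2 (GRIP1), bind the hormone-bound receptor through short leucine-rich motifs and bring in the histone acetyltransferases EP300 (p300) and CREBBP (CBP), while MED1 is the Mediator subunit through which nuclear receptors contact the RNA polymerase II machinery. NRIP1 (RIP140) also binds the hormone-bound receptor but recruits deacetylases and limits its activity, and it is known as an estrogen-induced gene in other breast cancer lines. TRIM24 (TIF1-alpha) is a bromodomain protein that reads histone marks and acts as a receptor coactivator in breast cancer cells.

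NRIP1 was the member with the largest change, so its promoter is shown. RefSeq (GRCh38.p14) lists 3 start sites for it, and the window around the second, chr21:15064951-15065250 on the minus strand, runs from 250 bases before to 50 after that start. The capitals mark a match to GGTCA, the core repeat of an estrogen response element, read on the opposite strand.
NRIP1 second start site: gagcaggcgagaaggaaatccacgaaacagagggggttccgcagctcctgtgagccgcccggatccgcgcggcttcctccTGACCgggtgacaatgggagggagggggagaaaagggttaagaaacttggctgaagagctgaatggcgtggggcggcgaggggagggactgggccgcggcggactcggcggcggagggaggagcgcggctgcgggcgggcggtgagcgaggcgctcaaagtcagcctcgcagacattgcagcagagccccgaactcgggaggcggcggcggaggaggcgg
The match lies at position -170 relative to the start. The window shown is the only 1 of the 3 NRIP1 windows with a match. Both strands of the promoter windows were searched for the palindromic estrogen response element without mismatch, for its core GGTCA, which the palindrome holds, and for the AP-1 site TGANTCA. The core was in 37.4% of all 35116 promoter windows of this length, the palindrome in 0.057% and the AP-1 letters in 7.71%. These shares are per window, and a gene with several start sites, as NRIP1, was searched in several windows. Among the 7 members with a promoter in the table, which leaves out NCOA2 and TRIM24, the only other core match was in MED1, and the only AP-1 match was in NCOR1. No member window held the palindrome.

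E2 changed most of the measured coregulators at 3 h, and not in 1 direction. NRIP1, NCOA1 and MED1 rose, NCOA2, TRIM24 and CREBBP fell, and EP300 did not pass the test. By limma's fit over all genes, at a Benjamini-Hochberg adjusted p under 0.05, 6 of 7 members were called, against 31.1% of all genes and 38.7% of genes above the lowest 25% of levels, where all 7 members lie. Those called were 3 higher and 3 lower, where 13.5% of all genes were higher and 17.6% lower. At 24 h 6 of 7 were called again, 2 higher and 4 lower, against 45.7% of all genes (21.5% higher, 24.2% lower) and 55.2% of those above the lowest 25%. The E2 and vehicle arrays did not overlap for 6 of 7 members at 3 h and 4 of 7 at 24 h, against 30.6% and 41.4% of all genes. Over all probe sets 27.8% were called at 3 h and 39.7% at 24 h. At least a 1.5-fold change was reached by NRIP1 at 3 h and by NRIP1 and TRIM24 at 24 h, where 5.31% and 6.34% of genes met that size and the threshold. The median size of the log2 change was 0.31 over the members at 3 h and 0.14 at 24 h, against 0.08 and 0.12 over all genes. Signed medians over the members were 0.05 at 3 h and -0.13 at 24 h, against 0.0002 and 0.02 over all genes.

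**Figure D1:**
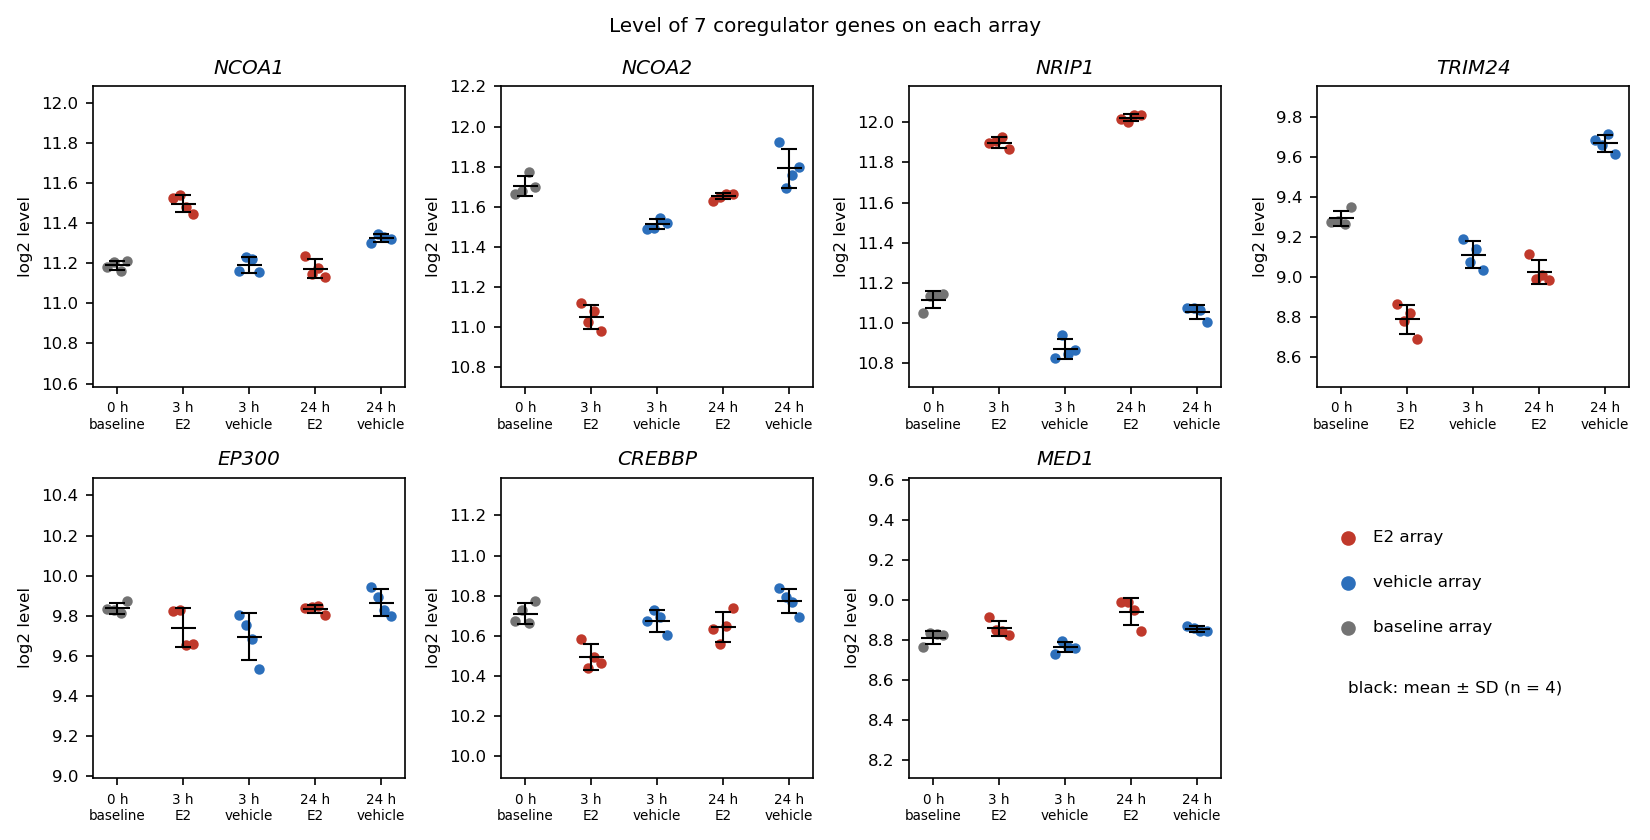
Log2 level of each measured coregulator on each array, by time and treatment, with a span of the same size in every panel and the mean and SD of 4 arrays in black. The NRIP1 arrays with E2 lie between 11.86 and 12.04, all above those of vehicle and baseline, while the vehicle arrays of TRIM24 differ between 3 h and 24 h.

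NRIP1, a corepressor as NCOR1 is and the one of them measured, about doubled with E2 at both times. At 3 h its log2 level was 11.89, 11.91, 11.93 and 11.86 on the E2 arrays, against 10.82, 10.94, 10.85 and 10.87 on the vehicle arrays. At 24 h it was 12.015, 12.002, 12.037 and 12.038 with E2, against 11.074, 11.076, 11.066 and 11.003 with vehicle. The groups were far apart at both times, and the lowest E2 array stood well above every vehicle and baseline array. The limma log2 fold change was 1.03 ± 0.03 at 3 h (SE, 4 arrays a group), which is 2.04-fold with a Benjamini-Hochberg adjusted p of 8.3e-16. At 24 h it was 0.97 ± 0.03, or 1.96-fold, with a limma adjusted p of 2.4e-15. By size this was number 144 among the increases of 11963 genes at 3 h and number 140 at 24 h. The second NRIP1 probe set gave larger changes, 1.31 ± 0.07 at 3 h and 1.19 ± 0.07 at 24 h.

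The effect on NRIP1 did not differ detectably between the times. The 24 h effect minus the 3 h effect was -0.06 ± 0.04, with a 95% interval from -0.15 to 0.03 and a limma adjusted p of 0.29. The 3 h vehicle level of NRIP1 was itself below baseline, at -0.25 ± 0.03 (limma adjusted p = 5.4e-06). Baseline arrays stood at 11.05, 11.13, 11.14 and 11.14. Set against that baseline, a reference chosen after seeing the data, NRIP1 with E2 was higher by 0.78 ± 0.03 at 3 h and by 0.91 ± 0.03 at 24 h (limma).

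The p160 coactivator genes NCOA1 and NCOA2 moved in opposite directions at 3 h. NCOA1 read 11.53, 11.54, 11.48 and 11.44 on the E2 arrays, against 11.16, 11.23, 11.22 and 11.15 on the vehicle arrays. NCOA2 read 11.12, 11.03, 11.08 and 10.98 with E2, against 11.49, 11.49, 11.54 and 11.52 with vehicle. Neither gene's groups overlapped. NCOA1 was higher by 0.31 ± 0.03, a 1.24-fold change (limma adjusted p = 7.6e-08), and each of its 4 probe sets rose, by 0.27 to 0.37. A probe set of NCOA1 other than the lead carries a name suffix that marks possible cross-hybridisation. NCOA2 was lower, at -0.46 ± 0.04, a 1.38-fold change (limma adjusted p = 2.1e-08), and each of its 4 probe sets fell, with changes from -0.57 to -0.24.

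By 24 h the NCOA1 effect had turned and the NCOA2 effect had shrunk. NCOA1 arrays with E2 read 11.24, 11.15, 11.18 and 11.13, against 11.30, 11.35, 11.33 and 11.32 with vehicle, and the groups did not overlap. The NCOA1 change was -0.15 ± 0.03 (limma adjusted p = 0.00029), and 3 of 4 probe sets were called lower. The fourth gave -0.03 and was not called. The NCOA2 arrays read 11.63, 11.65, 11.67 and 11.66 with E2, against 11.92, 11.69, 11.76 and 11.80 with vehicle, also without overlap. Its change of -0.14 ± 0.04 passed the threshold (limma adjusted p = 0.0087), but on only 1 of 4 probe sets, and with the median of its probe sets it was -0.10 with an adjusted p of 0.36.

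Both p160 effects differed between the times by the limma test of the difference, in which 3 of the 7 members were called, 1 higher and 2 lower, against 34.3% of all genes (16.5% higher, 17.8% lower) and 43% of those above the lowest 25%. The 24 h effect minus the 3 h effect was -0.46 ± 0.04 for NCOA1 (adjusted p = 5.1e-08), called on all 4 probe sets, where 29.3% of all probe sets were called. For NCOA2 it was 0.32 ± 0.06 (limma adjusted p = 2e-04), called on 2 of 4. The vehicle arrays enter these differences and moved as well. NCOA1 in 24 h vehicle was above baseline by 0.14 ± 0.03 (limma adjusted p = 0.005), and NCOA2 in 3 h vehicle was below baseline, at -0.19 ± 0.04 (limma adjusted p = 0.0022), on 1 of its 4 probe sets.

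Against the 0 h baseline, NCOA1 with E2 was higher by 0.31 ± 0.03 at 3 h and stood at -0.02 ± 0.03 at 24 h, with a 95% interval from -0.08 to 0.05. NCOA2 with E2 was lower at 3 h, at -0.65 ± 0.04, and at 24 h gave -0.05 ± 0.04 with an interval from -0.14 to 0.04. The 24 h E2 arrays of both genes overlapped the baseline arrays, which ran from 11.16 to 11.21 for NCOA1 and from 11.66 to 11.77 for NCOA2. In this comparison 35.5% of all genes were called at 3 h and 41.6% at 24 h, and of the members 5 and 3.

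**Figure D2:**
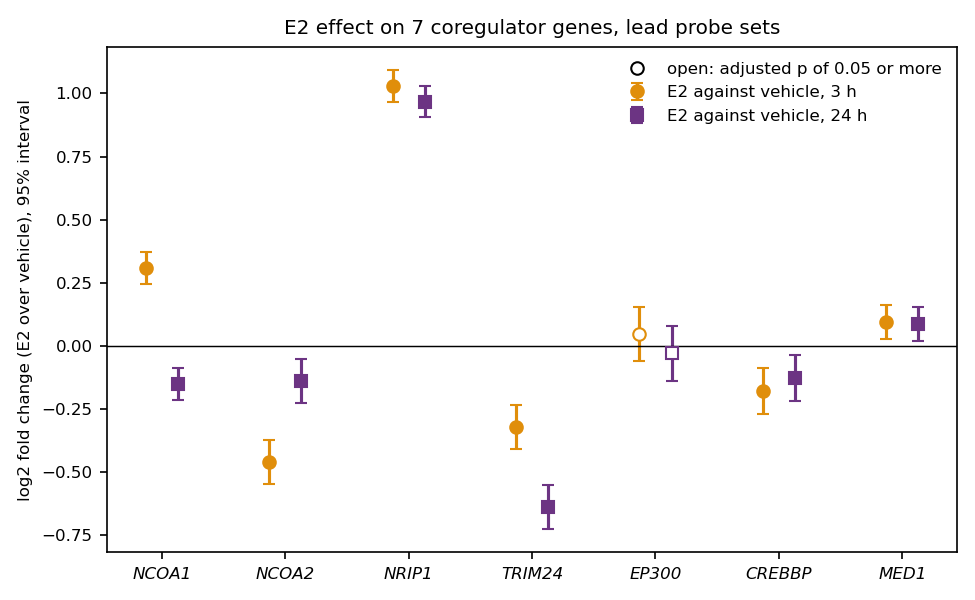
Log2 fold change of E2 over vehicle for the lead probe set of each coregulator at 3 h (circles) and 24 h (squares), with 95% intervals from the limma fit and open symbols where the adjusted p was not under 0.05. NRIP1 stands near 1 at both times, and NCOA1 is above 0 at 3 h and below it at 24 h.

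TRIM24 fell at both times, and at 24 h it had the largest decrease of the members. On the E2 arrays at 3 h it read 8.86, 8.78, 8.82 and 8.69, against 9.19, 9.08, 9.14 and 9.04 with vehicle. At 24 h it read 9.12, 8.99, 9.01 and 8.98 with E2, against 9.68, 9.66, 9.71 and 9.61 with vehicle. E2 and vehicle did not overlap at either time. The change was -0.32 ± 0.04 at 3 h (1.25-fold lower, limma adjusted p = 3.9e-06) and -0.64 ± 0.04 at 24 h (1.56-fold lower, limma adjusted p = 1.8e-10). The effect at 24 h minus that at 3 h was -0.32 ± 0.06 (limma adjusted p = 0.00026).

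The vehicle level of TRIM24 moved in both directions around the baseline, whose arrays read 9.27, 9.28, 9.27 and 9.35. At 3 h vehicle was lower than baseline, at -0.18 ± 0.04 (limma adjusted p = 0.0038), and at 24 h it was higher, by 0.37 ± 0.04 (limma adjusted p = 6e-06). The 24 h rise was number 160 by size among all 11963 genes in that comparison. With E2 all 4 arrays lay below all baseline arrays at both times, with differences of -0.50 ± 0.04 at 3 h and -0.27 ± 0.04 at 24 h (limma). Against baseline, then, the TRIM24 decrease was smaller at 24 h than at 3 h in value, whereas against vehicle it was larger.

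Of the 3 TRIM24 probe sets 2 were called lower at both times, and both carry the name suffix that marks possible cross-hybridisation. The third was below the level under which the lowest 25% of genes lie (6.11) in every group, with changes of 0.10 ± 0.10 and 0.14 ± 0.10 that did not pass. The TRIM24 changes are thus those of 2 probe sets that may also read related sequences.

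**Figure D3:**
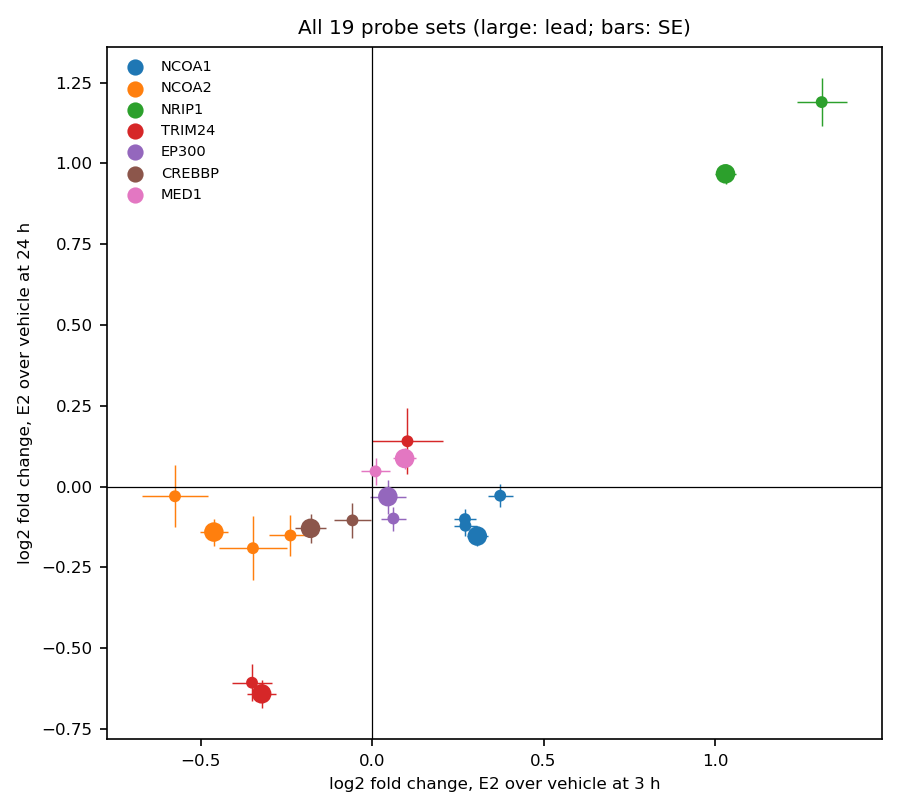
Log2 fold change of E2 over vehicle at 3 h (x axis) and 24 h (y axis) for all 19 probe sets of the 7 genes, with SE bars and the lead probe set of each gene drawn large. Both NRIP1 probe sets lie in the upper right, the 4 NCOA1 probe sets right of 0 and below it, and 1 dim TRIM24 probe set apart from the other two.

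The acetyltransferase genes EP300 and CREBBP changed little. CREBBP read 10.59, 10.44, 10.49 and 10.46 with E2 at 3 h, against 10.67, 10.73, 10.69 and 10.60 with vehicle, a difference of -0.18 ± 0.04 (limma adjusted p = 0.0029) with no overlap. At 24 h CREBBP was lower, at -0.13 ± 0.04 (limma adjusted p = 0.021), with 10.63, 10.56, 10.65 and 10.74 on E2 arrays against 10.84, 10.79, 10.77 and 10.70 on vehicle arrays, which overlapped. That 24 h call was lost without vehicle replicate A (adjusted p = 0.068) and without E2 replicate B (adjusted p = 0.081). The second CREBBP probe set was called at neither time.

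EP300 read 9.82, 9.83, 9.65 and 9.66 with E2 at 3 h, against 9.80, 9.76, 9.68 and 9.54 with vehicle. At 24 h it read 9.84, 9.84, 9.85 and 9.81 with E2, against 9.94, 9.90, 9.83 and 9.80 with vehicle. The arrays overlapped at both times. The change was 0.05 at 3 h, with a 95% interval from -0.06 to 0.15 (limma adjusted p = 0.58). It was -0.03 at 24 h, from -0.14 to 0.08 (limma adjusted p = 0.66), and without 1 vehicle array, replicate D, the 3 h value was -0.0068. The second EP300 probe set gave 0.06 at 3 h and -0.10 at 24 h and passed only at 24 h (limma adjusted p = 0.041 over all probe sets, of which 39.7% were called).

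MED1, the Mediator contact for nuclear receptors, was slightly higher with E2. It read 8.91, 8.85, 8.84 and 8.83 with E2 at 3 h, against 8.73, 8.79, 8.77 and 8.76 with vehicle. At 24 h it read 8.99, 8.99, 8.95 and 8.84 with E2, against 8.87, 8.86, 8.84 and 8.84 with vehicle, where 1 E2 array lay within the vehicle range. The changes were 0.09 ± 0.03 at both times, with limma adjusted p-values of 0.028 and 0.032. The calls depended on single arrays. At 3 h the call was lost without vehicle replicate A, C or D or E2 replicate A (adjusted p from 0.054 to 0.10), and at 24 h without vehicle replicate B, C or D or E2 replicate A, B or C (0.053 to 0.10). The second MED1 probe set was called at neither time, at 0.01 ± 0.04 and 0.05 ± 0.04. Against baseline MED1 with E2 gave 0.05 ± 0.03 at 3 h (limma adjusted p = 0.3) and 0.13 ± 0.03 at 24 h (adjusted p = 0.0025).

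Vehicle alone moved several members relative to the baseline. At 3 h 3 of 7 were called, all lower (NRIP1, NCOA2 and TRIM24), against 20% of all genes in either direction and 10.1% lower, 25.2% of genes above the lowest 25%, and 16.4% of all probe sets. EP300 gave -0.14 ± 0.05 there (limma adjusted p = 0.064), with all vehicle arrays below the baseline arrays, and passed without 3 h vehicle replicate A (-0.18, adjusted p = 0.025). The second EP300 probe set was called lower there, at -0.12 ± 0.04 (limma adjusted p = 0.038 over all probe sets). At 24 h 2 of 7 were called, both higher (NCOA1 and TRIM24), against 11.9% of all genes in either direction and 7.55% higher, 14.7% of genes above the lowest 25%, and 10.5% of all probe sets. NRIP1 in 24 h vehicle gave -0.06 ± 0.03 (limma adjusted p = 0.2), but its second probe set was called lower, at -0.27 ± 0.07. The lead values of the other members against baseline at 24 h lay between 0.03 for EP300 and 0.09 for NCOA2 and did not pass. Among their other probe sets 1 of MED1 was called lower (-0.14 ± 0.04, limma adjusted p = 0.039), opposite to its lead, and 1 of NCOA2 higher (0.26 ± 0.06, adjusted p = 0.012).

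Ordered from low to high by group mean, NRIP1 ran from 3 h vehicle (10.87) through 24 h vehicle (11.05) and baseline (11.12) to 3 h E2 (11.90) and 24 h E2 (12.02). Only 24 h vehicle and baseline overlapped among these neighbours. NCOA1 began with 24 h E2 (11.17), baseline (11.19) and 3 h vehicle (11.19), each overlapping the next, and went on to 24 h vehicle (11.33) and 3 h E2 (11.50), which stood apart. The NCOA2 order was 3 h E2 (11.05), 3 h vehicle (11.51), 24 h E2 (11.65), baseline (11.70) and 24 h vehicle (11.79), and the last 3 overlapped with their neighbours. For TRIM24 it was 3 h E2 (8.79), 24 h E2 (9.02), 3 h vehicle (9.11), baseline (9.29) and 24 h vehicle (9.67), with overlap only between 24 h E2 and 3 h vehicle.

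In the remaining members the neighbours mostly overlapped. This held for all neighbouring pairs of EP300 and CREBBP and for all but baseline and 24 h vehicle in MED1. The range of the 5 group means was 1.15 for NRIP1, 0.88 for TRIM24, 0.74 for NCOA2 and 0.32 for NCOA1, and from 0.17 to 0.28 for the others. Set against the median SD within groups, that range was 33.2 times as large for NRIP1 and 2.59 times for EP300.

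The genes of most like pattern were found by the root mean square difference of the 5 group means, each gene centred on its own mean. For NRIP1, whose own means spread by 0.47 on that measure, they were REEP1 (0.08), PLCL2 (0.08) and SGK1 (0.09), a kinase gene, all on the log2 scale. For TRIM24, with a spread of 0.29, they were AHSA2P (0.06), GRB7 (0.06), an adaptor of receptor tyrosine kinases, and N4BP2L1 (0.07). For NCOA2, with a spread of 0.26, they were PLEKHF2 (0.03), ZNF213-AS1 (0.03) and PALMD (0.04). Each was picked as closest among all genes over only 5 group means of the same arrays.

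Lists of other coregulators held more genes that fell than rose with E2, as did all genes tested, of which 1619 rose and 2101 fell at 3 h and 2572 rose and 2897 fell at 24 h. Of 25 other coactivator genes measured, 5 rose and 9 fell at 3 h, and 3 rose and 12 fell at 24 h, with median changes of -0.06 and -0.08. CITED2, which binds p300 and CBP, was lower at 3 h (-1.93 ± 0.05) and at 24 h (-0.81 ± 0.05), on both of its probe sets. The CITED2 means at 3 h were 9.82 with E2 and 11.75 with vehicle, against 11.01 at baseline, so a higher vehicle level enters its 3 h change. NCOA4 was higher at 3 h (0.44 ± 0.02) and lower at 24 h (-0.18 ± 0.02), as NCOA1 was. RBM14 went the other way, lower at 3 h (-0.32 ± 0.04) and higher at 24 h (0.16 ± 0.04), and the acetyltransferase gene KAT2B (PCAF) was lower (-0.83 ± 0.05) at 24 h. The KAT2B means at 3 h were 8.75 with E2 and 8.97 with vehicle, and its 1 probe set was called lower then too. Limma adjusted p-values of the changes given here with an error ran from 4.4e-16 for CITED2 at 3 h to 0.0028 for RBM14 at 24 h.

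Of 27 other corepressor genes, 3 rose and 9 fell at 3 h, and 4 rose and 9 fell at 24 h, with medians of -0.03 and -0.01. TLE1, a Groucho-family corepressor, was lower at 3 h (-1.64 ± 0.04) and at 24 h (-0.56 ± 0.04), on all 3 probe sets both times. TBL1XR1 and TBL1X, which encode related subunits of the NCOR complex, went opposite ways. TBL1XR1 fell at 3 h (-0.88 ± 0.04) and at 24 h (-0.25 ± 0.04), and TBL1X rose at 3 h (0.13 ± 0.03) and at 24 h (0.43 ± 0.03), where all 5 of its probe sets rose. At 24 h TLE3 was lower, at -0.74 ± 0.05, and BRCA1, a DNA repair gene that also restrains the receptor, was higher by 0.78 ± 0.07. The TLE3 means at 3 h were 9.22 with E2 and 9.53 with vehicle, and 2 of its 3 probe sets were called lower then. The orphan receptor gene NR2F1 fell at 3 h (-0.85 ± 0.09), but was below the level of the lowest 25% in both groups. Limma adjusted p-values of the changes given here with an error ran up to 0.0017, for TBL1X at 3 h.

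Among 23 other Mediator genes, 4 rose and 7 fell at 3 h, and 3 rose and 8 fell at 24 h, with medians of -0.04 and -0.02. The kinase genes of the Mediator kinase module parted at 3 h, where CDK19 rose (0.56 ± 0.04) and CDK8 fell (-0.42 ± 0.04). The CDK19 means at 3 h were 10.46 with E2 and 9.90 with vehicle, against 10.22 at baseline, so a lower vehicle level enters its rise. For CDK8 they were 8.98 with E2 and 9.40 with vehicle, against 9.40 at baseline. CDK8 was also lower at 24 h (-0.58 ± 0.04), as were MED13 (-0.36 ± 0.03) and MED23 (-0.29 ± 0.03), and MED23 was lower at 3 h (-0.45 ± 0.03). Limma adjusted p-values for these were 1e-06 or smaller. Of 14 SWI/SNF chromatin remodelling genes, 0 rose and 4 fell at 3 h, and 2 rose and 6 fell at 24 h, with medians of -0.06 and -0.07.

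The SWI/SNF changes at 3 h were small, from -0.15 to 0.10. ARID1A (-0.15 ± 0.03), PBRM1 (-0.12 ± 0.03) and BRD7 (-0.12 ± 0.03) had the smallest p at 3 h. At 24 h the ATPase gene SMARCA2 was lower (-0.44 ± 0.05) and the other ATPase gene SMARCA4 was higher (0.22 ± 0.03), with SMARCC1 lower (-0.26 ± 0.03). Of 6 SMARCA2 probe sets 4 were called lower and 1 higher at 24 h, so its probe sets disagree, while 5 of 8 for SMARCA4 were called higher and 0 lower. The shares called were 56%, 44.4%, 47.8% and 28.6% for coactivators, corepressors, Mediator and SWI/SNF genes at 3 h, and 60%, 48.1%, 47.8% and 57.1% at 24 h, beside 31.1% and 45.7% of all genes. Some genes, such as ARID1A and SMARCA4, stand in 2 lists. The lists, like the members, were chosen with earlier results of these data known, so these shares are no independent test.

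**Figure D4:**
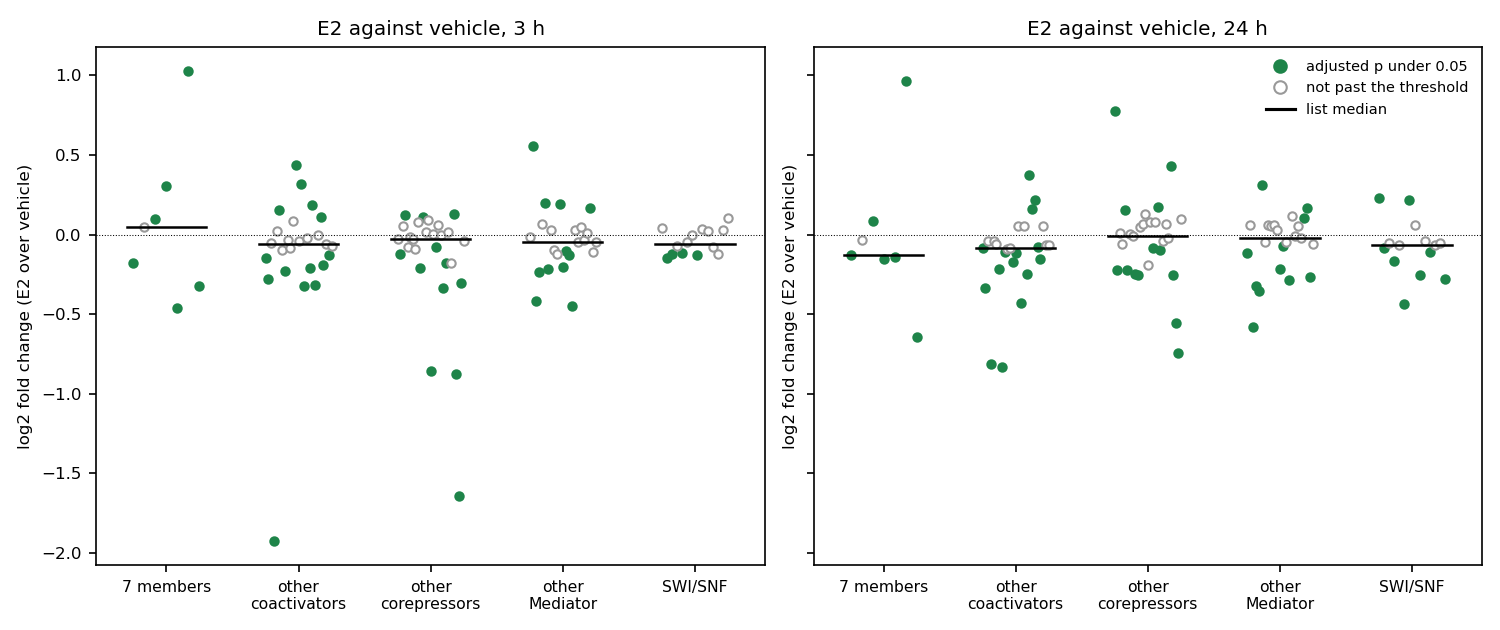
Log2 fold change of E2 over vehicle at 3 h (left) and 24 h (right) for the 7 measured members and 4 lists of other coregulator genes, each point 1 gene, filled where the limma adjusted p was under 0.05, with list medians as bars. CITED2 at -1.93 and TLE1 at -1.64 are the lowest points at 3 h, and NRIP1 is the highest at both times.

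The treatment and the cells were checked on other genes. The receptor target GREB1 was higher with E2 by 1.70 ± 0.07 at 3 h and 2.41 ± 0.07 at 24 h, and TFF1 by 0.12 ± 0.02 and 0.14 ± 0.02. PGR was higher by 1.01 ± 0.14 and 0.72 ± 0.14 on a dim probe set, and the receptor gene ESR1 was lower, at -0.29 ± 0.03 and -0.18 ± 0.03, all called by limma. The GREB1 means with E2 were 11.79 at 3 h and 11.89 at 24 h, against 10.09 and 9.48 with vehicle and 10.48 at baseline. Its larger 24 h value thus goes with a lower vehicle level. On the difference between the times, 1 of its 3 probe sets was called higher and 1 lower. By mean over all arrays, all 7 luminal epithelial markers were above the level of the lowest 25%. Their summed log2 level ran from 88.7 to 89.5 on the 3 h E2 arrays and from 92.0 to 92.1 on the 3 h vehicle arrays, a time at which 3 of the 7 were called lower with E2 (GATA3 at -2.07 ± 0.04, FOXA1 at -1.30 ± 0.06 and ESR1) and 2 higher (KRT19 at 0.59 ± 0.04 and KRT8 at 0.10 ± 0.03). At 24 h 3 were called higher and 4 lower. Of the markers of other cell types, 4 of 5 fibroblast genes (all but COL1A1), 4 of 6 immune and endothelial genes and 2 of 2 basal genes lay below that level, again by mean over all arrays, though DCN and KRT5 with 24 h E2 and PECAM1 in 24 h vehicle and baseline had group means above it. With E2 at 24 h the fibroblast genes COL1A1 (0.15 ± 0.05) and DCN (0.24 ± 0.09) and the basal gene KRT5 (0.19 ± 0.07) were called higher by limma, and the fibroblast gene COL3A1 (-0.17 ± 0.06) and the endothelial gene PECAM1 (-0.42 ± 0.08) lower. At 3 h PECAM1 was the only one of these called, and lower (-0.26 ± 0.08). At 24 h COL1A1 had 1 of 4 probe sets called higher and 1 lower, and COL3A1 had 1 of 4 higher and 2 lower. The direction of each thus differs by probe set. The part of these marker changes in the member values was not tested.

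A sign of RNA quality moved with E2 at 3 h, beside the results of that time. For ACTB, the 3' control probe set minus the 5' one gave a log2 value of 0.385 ± 0.032 on E2 arrays against 0.315 ± 0.027 on vehicle arrays (SD, n = 4), and that of GAPDH was -0.138 ± 0.011 with E2 and -0.116 ± 0.0085 with vehicle, with no overlap in either. At 24 h the arrays overlapped for both. Baseline stood at 0.466 ± 0.010 for ACTB, above all other groups. The part of this in the member values was not tested. Arrays of a group correlated at 0.998 to 0.999 and arrays of different groups at 0.988 to 0.998, with no pair identical. As these are bulk samples, fewer cells with a transcript and less of it per cell cannot be told apart.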

How the data were processed

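The authors deposited log2 expression values per probe set, and the submitters' processing notes name RMA and affy. Versions, parameters and build are not given in the sources used here. RMA gives all arrays like distributions, so a change in total RNA per cell would not show. Of 22277 probe sets, 62 controls were left out, 19064 had 1 symbol in the platform annotation, 1043 had several and 2108 had none. Entrez numbers of 19052 matched RefSeq and changed 0 symbols. The members and lists were chosen with earlier results of these data known. Genes named outside the members are, per list and E2 comparison, the 3 of smallest p and those changed at least 1.5-fold, and the 3 of most like pattern for the 3 members of widest range.

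All 20 arrays entered 1 two-sided fit by lmFit and eBayes (limma 3.58.1, R 4.3.3), with a mean per group, no block and 1 probe set per gene. P-values were adjusted by Benjamini-Hochberg across all 11963 genes, threshold 0.05. Probe sets were compared in a second fit over all 22215. Errors are standard errors of the fit unless SD is named. The number of arrays limits precision. Replicate letters were not used as pairs in this fit. Same-letter correlations of deviations from group means ran from -0.25 to 0.03, so no shared letter effect was seen. They cannot tell how the letters were assigned. Alternatives covered the block, arrays fitted, normalization, dim genes, probe set choice, variance prior, weights and single arrays left out. A planned protein motif search was not made. No columns of other samples were used.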

Additional observations from a re-analysis of the deposited data

Results flagged for a closer look

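The E2 effect differed between 24 h and 3 h for 3 members by the limma test of the difference. It was more negative at 24 h for NCOA1 (-0.46 ± 0.04) and TRIM24 (-0.32 ± 0.06) and more positive for NCOA2 (0.32 ± 0.06), and vehicle movement between the times enters each.

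In 3 of the 35 sets of 4 arrays (7 genes in 5 groups) 1 array stood apart from the other 3 by Dixon's test, which chance does in about 1 set in 20. They were baseline replicate A for NRIP1 (11.05) and for MED1 (8.76), and 24 h vehicle replicate D for NRIP1 (11.003). With each array left out in turn, the NRIP1 change in vehicle against baseline stayed between -0.27 and -0.23 at 3 h and between -0.08 and -0.04 at 24 h. The E2 effect on NRIP1 at 24 h stayed between 0.95 and 0.97.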

How the results depend on the processing

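Of 630 values of single members under the alternatives, 263 with another setting and 315 with 1 array left out kept their direction and their side of the threshold. The values of NRIP1, NCOA1 and TRIM24 under E2 against vehicle, and those of NCOA2 at 3 h, did so in every alternative except that against the 0 h baseline, chosen after seeing the data, where NCOA1 lost its 24 h call. That reference left 3 members called at 24 h. Signs turned for small values that were not called. NCOA1 in 3 h vehicle against baseline was -0.0058 with arrays centred on the median, -0.0016 with cyclic loess and -0.023 with the median of probe sets, and ran from -0.012 to 0.013 with arrays left out in turn. The MED1 difference between the E2 effects was 0.016 with cyclic loess, 0.015 with the median of probe sets and 0.0093 with array weights, and from -0.023 to 0.025 with arrays left out. EP300 under E2 was 0.011 at 24 h with cyclic loess, -0.096 at 3 h against baseline, and from -0.0068 to 0.082 at 3 h with arrays left out. With the median of probe sets, 24 h vehicle against baseline gave -0.029 for NCOA2 and -0.049 for MED1. MED1 and CREBBP lost E2 calls most often. Of the E2 effects, MED1 at 24 h gave an adjusted p of 0.1 from only the arrays compared, and CREBBP at 24 h gave 0.098 with cyclic loess. In the 3 h vehicle comparison EP300 passed in 5 settings besides arrays left out. With the replicate letter as a replicate block, 6 members were called at each time under E2 and 3665 and 5479 genes in all, and its only changed member call was EP300 in 3 h vehicle against baseline (adjusted p = 0.028). With arrays left out in turn, 5 to 6 members were called at 3 h and 4 to 6 at 24 h. The split of called genes at 24 h was 2572 higher and 2897 lower, and 2854 higher of 5539 with arrays centred on the median.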
